A study of Mus musculus with 18 samples.

Results

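The developmental pluripotency-associated genes Dppa2, Dppa3, Dppa4 and Dppa5a, and a further set of embryonic stem cell (ESC) markers outside the core transcription factors, Tdgf1, Gdf3, Utf1 and Tcl1, were followed across polysome gradients of wild type (WT) and DDX6 KO mouse ESCs. These 8 genes were listed by symbol and by no rule on measured values, though earlier results of these data were known. They are 8 of the 51467 genes in the count table. All 8 passed the filter on low counts, with the smallest count of a member in any library being 49. The study asked how loss of DDX6, an RNA helicase of translational repression and mRNA decay, alters the loading of mRNAs onto ribosomes.

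All cells were V6.5 mouse ESCs kept in serum medium with LIF, a cytokine that sustains ESCs, and the 2i kinase inhibitors, and all were given cycloheximide, which holds ribosomes on mRNA, before lysis. Each sucrose gradient was divided into monosomes, low polysomes with 2 to 4 ribosomes on an mRNA, and high polysomes with 4 or more. The groups were therefore WT and KO monosome, WT and KO low polysome, and WT and KO high polysome, with 3 gradients per genotype and 18 libraries. Clone 1 gave KO gradient 1 and clone 2 gave the other two, both clones having been made with CRISPR-Cas9, so the KO group holds 2 clones and a clone difference cannot be told apart from a difference between gradients. Nothing in the labels says that the gradients of a genotype came from separate cultures, so the p-values measure only the spread between libraries from these gradients. Apart from the test over all fractions, the main tests had no gradient term and took the libraries of a gradient as independent.

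A ribosome that starts on an mRNA is followed by others while it is still translating, so a well translated mRNA sediments in heavy polysomes and a poorly translated one with a single ribosome, and a longer coding sequence has room for more ribosomes. The DPPA genes share a name for their expression in pluripotent cells and not a protein family. Dppa2 and Dppa4 encode SAP domain chromatin proteins that act as a pair, Dppa3 (Stella or PGC7) encodes a protein that shields DNA methylation in the early embryo, and Dppa5a encodes a KH domain RNA-binding protein. Tdgf1 (Cripto) encodes the co-receptor of the ligand Nodal, Gdf3 a ligand of the TGF-beta superfamily, Utf1 a chromatin-bound transcription factor, and Tcl1 a small coactivator of the kinase AKT.

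On GRCm38, Dppa4 lies on chromosome 16 from 48283733 to 48294237 (plus strand) and Dppa2 follows it from 48303908 to 48319723 on the same strand, 9671 bases away. Gdf3 (chromosome 6, 122605403 to 122610087, minus strand) and Dppa3 (122626410 to 122630272, plus strand) are also neighbours, 16323 bases apart. Dppa5a (78367052 to 78368177) and Tdgf1 (110939603 to 110946158) lie on the minus strand of chromosome 9, Utf1 (139943789 to 139945112) on the plus strand of chromosome 7 and Tcl1 (105216750 to 105222793) on the minus strand of chromosome 12. Their annotated coding lengths, stop codon included, fall into a short and a longer set. Tcl1 (351 nt), Dppa5a (357 nt), Dppa3 (453 nt) and Tdgf1 (516 nt) are short, with 3.51%, 3.72%, 7.06% and 9.48% of tested genes below them in length. Dppa4 (891 nt), Dppa2 (906 nt), Utf1 (1020 nt) and Gdf3 (1101 nt) have 27.2% to 38.1% of genes below them.

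Ribosome loading starts at the start codon, so its surroundings are shown for each member, 5′ to 3′, with the start codon in capitals, from the annotated transcripts of Gencode M21 on GRCm38.
Tcl1: gatgccATGg
Dppa5a: ggcaggATGa
Dppa3: atcgccATGg
Tdgf1: tcgaagATGg
Dppa4: ctcaagATGg
Dppa2: ctgaaaATGt
Utf1: tcagggATGc
Gdf3: acgaccATGc
All 8 had a purine 3 bases before the start codon, as did 86.6% of 11511 tested genes with such a window. A G directly after the start codon was present in 4 of the 8 (Tcl1, Dppa3, Tdgf1 and Dppa4) and in 53.8% of the tested genes. Both letters together were present in 4 of 8 members and in 46.5% of genes.

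DDX6 is also studied as an effector of miRNAs. The miRNA family that the study describes as predominant in ESCs shares a seed (bases 2 to 8, in capitals). RefSeq gives mature sequences with this seed as follows, miR-302b-3p being listed for its seed and not for its abundance.
miR-294-3p: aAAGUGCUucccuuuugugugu
miR-295-3p: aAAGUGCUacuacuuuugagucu
miR-302b-3p: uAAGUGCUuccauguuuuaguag
The matching 3′ UTR sites, searched on the mRNA strand, were the 8mer AGCACTTA and the 7mers AGCACTT and GCACTTA that lie within it. None of these sites occurred in the annotated 3′ UTR of any of the 8 members, against 18.6% of 11632 tested genes with at least 1 of them and 3.13% with the 8mer. The members' 3′ UTRs ran from 122 nt (Utf1) to 1101 nt (Tdgf1), and the median over tested genes was 945.5 nt.

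Library totals ran from 2543617 to 11474550 counts, and the WT monosome libraries were the smallest. Ddx6 itself was at 143 to 212 CPM (counts scaled to library size, after TMM scaling) in the 9 WT libraries, at 55.3 to 82.7 CPM in the clone 1 libraries and at 9.68 to 26.7 CPM in clone 2, with 3′ end reads that lie outside the edited exon and so do not test for the protein. The 8 defining ESC markers (Pou5f1, Sox2, Nanog, Esrrb, Klf4, Tfcp2l1, Zfp42 and Sall4) were all detected and summed to 1804 to 3349 CPM per WT library and 1737 to 3190 CPM per KO library. The 7 feeder fibroblast markers summed to 4.65 to 10.7 CPM in WT and 5.79 to 11.1 CPM in KO, with Col3a1 at 0 in both and Postn at 0 in WT. The 4 primed cell markers summed to 103 to 149 CPM in WT and 32.7 to 80.4 CPM in KO, with Fgf5 at 0 in both. The 6 primitive endoderm markers summed to 4.18 to 11.1 CPM in WT and 7.44 to 26.6 CPM in KO, and the 5 mesoderm and neural markers to 31.2 to 50.4 CPM in WT and 28.7 to 73.5 CPM in KO, and the part of these cell types in the members' values was not tested. In bulk lysates, a smaller number of cells expressing a gene cannot be told apart from less of its RNA per cell.

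Translation level, the ratio of high polysome to monosome abundance, was lowered in KO for Dppa3, Dppa5a, Tdgf1 and Tcl1. Each library was scaled to its own total, so this ratio is relative to the other mRNAs of each fraction. It does not give the share of an mRNA's molecules that lay in a fraction. Relative to WT the ratio was 0.384 times as high for Dppa3, 0.224 times for Dppa5a, 0.446 times for Tdgf1 and 0.635 times for Tcl1. None of Dppa2, Dppa4, Gdf3 and Utf1 passed the test. By the limma interaction term, 4 of 8 members were called lowered and 0 raised at an adjusted p (Benjamini-Hochberg over all genes tested) under 0.05, against 17.8% of all 12705 tested genes called (7.09% lowered and 10.7% raised). Both edgeR and DESeq2 gave 4 lowered and 0 raised, and at an unadjusted p under 0.05 limma gave 5, the fifth being Utf1. The median log2 change was -0.43 over the 8 members and 0.02 over all genes tested. Raised genes made up 60.1% of the calls over all genes, and 40.3% when libraries were scaled by their size alone, under which the 4 members were also called.

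**Figure D1:**
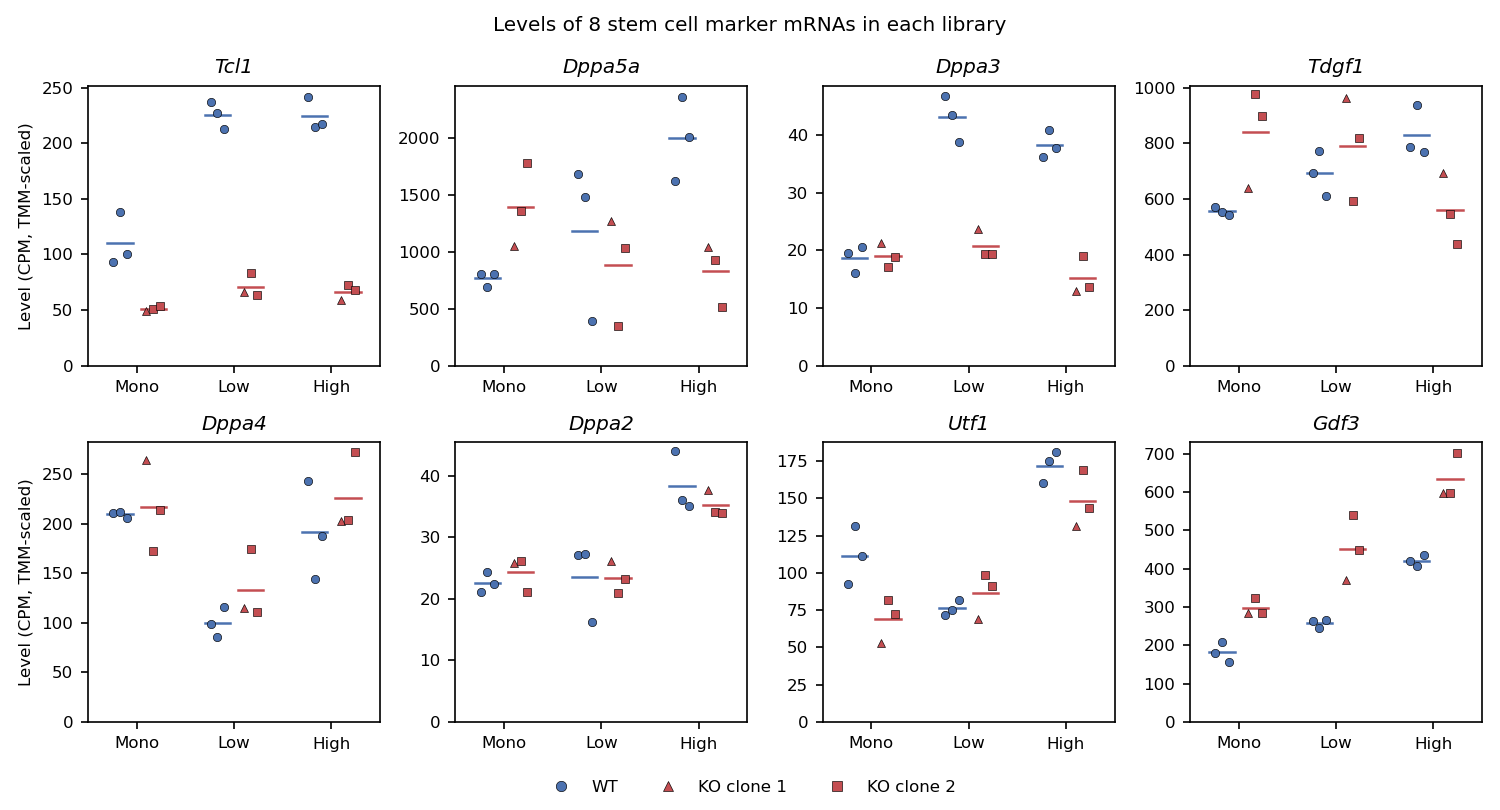
Level of each of the 8 mRNAs in every library (CPM after TMM scaling, linear axis from 0) by fraction, with WT as circles, KO clone 1 as triangles, KO clone 2 as squares and the group mean of 3 libraries as a line. For Tcl1 all 9 KO libraries lie below the WT libraries of the same fraction, and for Gdf3 they lie above.

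Dppa3 showed the lowering in both polysome fractions. In WT its level in gradients 1, 2 and 3 was 19.5, 16.03 and 20.5 CPM in the monosome, 46.8, 43.5 and 38.8 CPM in low polysomes and 36.2, 40.9 and 37.7 CPM in the high polysome. In KO it was 21.3, 17.04 and 18.9 CPM in the monosome, 23.8, 19.4 and 19.3 CPM in low polysomes and 12.9, 19.02 and 13.6 CPM in the high polysome. The genotypes overlapped in the monosome, and every KO library was below every WT library in both polysome fractions. The log2 ratio of high polysome to monosome was 0.87, 1.33 and 0.86 in WT and -0.70, 0.15 and -0.46 in KO, with means of 1.02 ± 0.26 and -0.33 ± 0.44 (SD, n = 3 each). The KO effect on it was -1.38 (log2, SE 0.25, limma adjusted p = 0.00119). It kept its call under each of 14 alternatives, at adjusted p up to 0.0332. Dppa3 shares 11.4% of the 50-base words of the last 400 bases of its transcript with transcripts of other genes, Dppa3-ps, Gm15620 and Gm47576, so the size of its unique counts is uncertain.

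For Dppa5a the largest change on the log2 scale came with the widest spread. WT levels were 808, 688 and 807 CPM in the monosome, 1683, 1479.6 and 389.8 CPM in low polysomes and 1622, 2359 and 2014 CPM in the high polysome. KO levels were 1054, 1362 and 1784 CPM in the monosome, 1269, 347 and 1039 CPM in low polysomes and 1044, 930.4 and 512 CPM in the high polysome. KO libraries were thus above WT libraries in the monosome and below them in the high polysome without overlap, while WT gradient 3 and KO gradient 2 stood low in the low polysome. The log2 ratio of high polysome to monosome was 1.01, 1.78 and 1.32 in WT and -0.01, -0.55 and -1.80 in KO. The KO effect was -2.16 (log2, SE 0.63, limma adjusted p = 0.0223, 95% interval -3.46 to -0.85). The call was lost without KO gradient 3 (log2 -1.67, adjusted p = 0.148) and without WT gradient 2 (log2 -1.95, adjusted p = 0.103). Of the 50-base words in the last 400 bases of the Dppa5a transcript, 33.9% also occur in transcripts of other genes, pseudogenes such as Dppa5b and Dppa5c among them, so its unique counts are uncertain in size. Dppa5b and Dppa5c themselves were at 0 counts in every library.

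Tdgf1, the Nodal co-receptor, moved in opposite directions at the ends of the gradient. WT levels were 569.9, 554 and 542 CPM in the monosome, 692, 773 and 611 CPM in low polysomes and 787, 937 and 769 CPM in the high polysome. KO levels were 640.3, 979.8 and 899 CPM in the monosome, 965, 592 and 819 CPM in low polysomes and 694, 545 and 439.7 CPM in the high polysome. Every KO library was above WT in the monosome and below WT in the high polysome, and the genotypes overlapped in the low polysome. The log2 ratio of high polysome to monosome was 0.46, 0.76 and 0.50 in WT and 0.12, -0.85 and -1.03 in KO, so that clone 1 stood nearest to WT. The KO effect was -1.16 (log2, SE 0.26, limma adjusted p = 0.00488), and without KO gradient 3 it was -0.96 (adjusted p = 0.0536).

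Tcl1 combined a lower level in every fraction with a smaller change in translation level. WT levels were 93.6, 138 and 100.5 CPM in the monosome, 237, 227 and 213 CPM in low polysomes and 242, 215 and 217 CPM in the high polysome. KO levels were 48.9, 50.8 and 53.7 CPM in the monosome, 66.7, 83.5 and 63.1 CPM in low polysomes and 58.8, 72.2 and 67.9 CPM in the high polysome. The log2 ratio of high polysome to monosome was 1.36, 0.64 and 1.11 in WT and 0.26, 0.50 and 0.34 in KO, again without overlap but with WT gradient 2 close to KO. The KO effect was -0.66 (log2, SE 0.20, limma adjusted p = 0.0297). The call was lost without KO gradient 1 (adjusted p = 0.0659), KO gradient 3 (0.108), WT gradient 1 (0.0910) or WT gradient 3 (0.0911), with effects of -0.58 to -0.66.

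**Figure D2:**
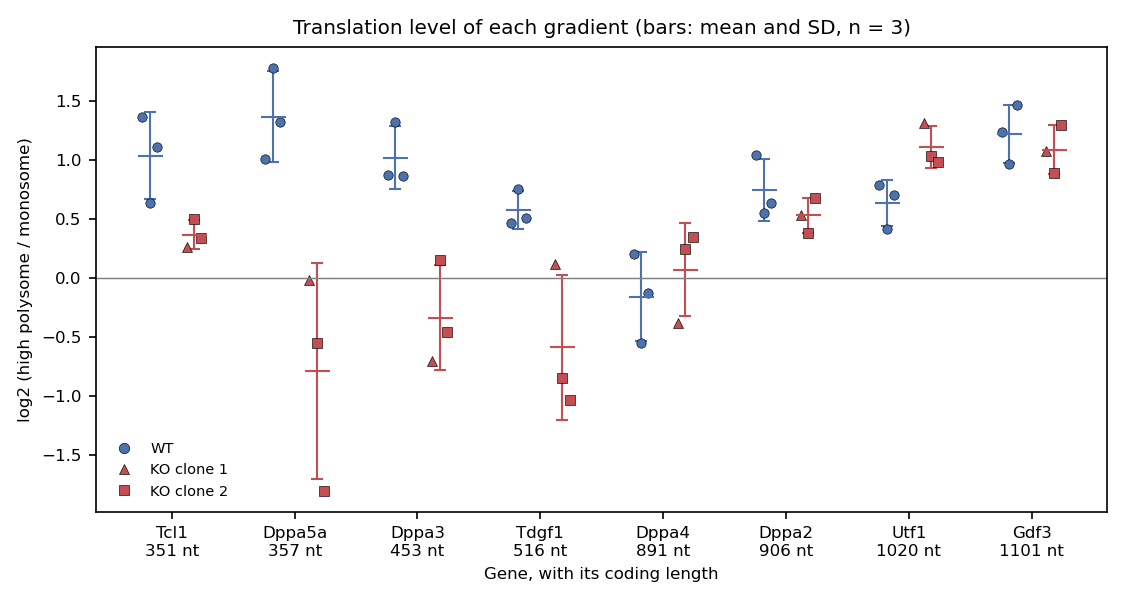
Translation level, log2 of high polysome over monosome with a pseudocount of 0.5 CPM, of each gradient in WT and KO, with genes in order of coding length and bars for the mean and SD of 3 gradients. The WT and KO gradients do not overlap for Tcl1, Dppa5a, Dppa3 and Tdgf1, which are lower in KO, nor for Utf1, which is higher in KO and did not pass the test.

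For the 4 longer members the KO effect on translation level was small or uncertain. Dppa2 had log2 ratios of 1.04, 0.55 and 0.64 in WT and 0.54, 0.38 and 0.67 in KO, a difference of -0.20 with a 95% interval of -0.73 to 0.33. Dppa4 had log2 ratios of 0.20, -0.55 and -0.13 in WT and -0.38, 0.24 and 0.35 in KO, and its difference of 0.23 had an interval of -0.35 to 0.81. The pair of chromatin partners therefore overlapped between genotypes. Gdf3 had log2 ratios of 1.23, 0.97 and 1.46 in WT and 1.07, 0.89 and 1.30 in KO, a difference of -0.14 with an interval of -0.53 to 0.26. Utf1 had log2 ratios of 0.79, 0.41 and 0.70 in WT and 1.31, 1.04 and 0.98 in KO, which do not overlap. Its difference of 0.49 had an interval of 0.0038 to 0.98 and a limma adjusted p of 0.149, and in the fit with the gradient as a replicate block it was 0.48 with an adjusted p of 0.0442, the lowest of a range up to 0.404 over the alternatives. For Dppa2, Dppa4 and Gdf3 the intervals held changes in both directions, so that no direction can be given with 3 gradients per genotype.

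Coding length separated the called from the uncalled members, and it moved with the KO effect over all genes as well. Over the 11773 tested genes with a coding length, the median KO effect on translation level rose from -0.54 in the decile of shortest coding sequences to 0.59 in the decile of longest. Among the 1293 tested genes of at most 550 nt the median was -0.53 and 27.0% were called lowered, and all 4 members of that length were lowered. With the trend of all genes removed, the change was -0.91 for Dppa3 (limma adjusted p = 0.0332), -1.62 for Dppa5a (0.127), -0.71 for Tdgf1 (0.106) and -0.11 for Tcl1 (0.777), so 1 of the 4 calls remained. The values of the trend at these lengths were -0.47, -0.54, -0.45 and -0.54 on the same scale, and for Tcl1 the trend came close to the whole change. The part of coding length in the members' changes was not tested beyond this comparison.

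**Figure D3:**
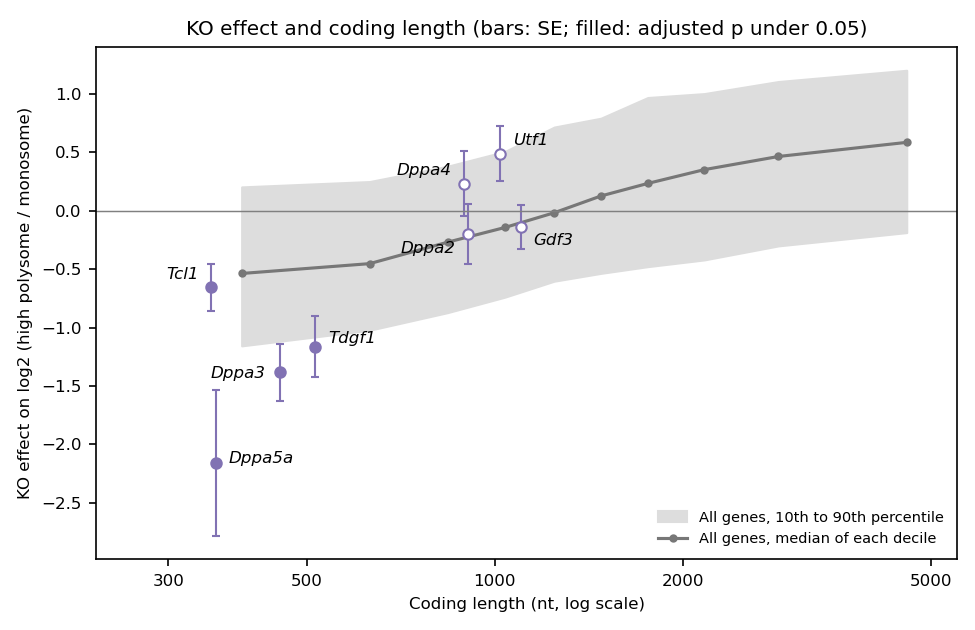
KO effect on log2 (high polysome / monosome) of the 8 members (SE bars, filled where the adjusted p was under 0.05) against coding length on a log axis, over the median and the 10th to 90th percentile of all genes in deciles of coding length. Tcl1, Dppa5a, Dppa3 and Tdgf1 are in the decile of shortest coding sequences (78 to 525 nt). Dppa5a, Dppa3 and, narrowly, Tdgf1 lie below its 10th percentile, while Tcl1 lies near its median. The band and the median line begin at 393 nt, to the right of Dppa5a and Tcl1.

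In WT cells, high polysome abundance was above monosome abundance for 7 of 8 members, against 61.1% of all genes called, 28.9% as higher and 32.2% as lower. The WT log2 difference was 1.37 (SE 0.44) for Dppa5a, 1.22 (SE 0.14) for Gdf3, 1.04 (SE 0.18) for Dppa3, 1.03 (SE 0.14) for Tcl1, 0.73 (SE 0.19) for Dppa2, 0.62 (SE 0.17) for Utf1 and 0.58 (SE 0.18) for Tdgf1. Dppa4 was the exception at -0.16 (95% interval -0.58 to 0.25). Among the 1293 genes of at most 550 nt the median WT difference was -0.64, 17.6% were called higher and 30.8% lay above 0, the side on which all 4 short members lay. Without WT gradient 2, Dppa5a (adjusted p = 0.0930) and Tdgf1 (adjusted p = 0.0961) lost their calls. Of the 30 further stem cell markers described below, 20 were called higher and 4 lower (median 0.79, against 0.88 for the 8 members). Of 13 Nodal partners 10 were higher and 1 lower (median 0.62), and of 10 AKT partners 2 were higher and 3 lower. The 9 DNA methylation genes gave 1 higher and 0 lower, and the 4 maternal genes 2 and 0.

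In KO cells the order of the members changed. Gdf3 (log2 1.09, SE 0.13), Utf1 (1.11, SE 0.16), Dppa2 (0.54, SE 0.17) and Tcl1 (0.37, SE 0.14) had more high polysome than monosome abundance, and Tdgf1 (-0.59, SE 0.18) had less, which made 5 of 8 called against 68.5% of all genes (35% higher and 33.6% lower). Dppa3 (-0.34, interval -0.69 to 0.0082), Dppa5a (-0.79, interval -1.71 to 0.13) and Dppa4 (0.07, interval -0.34 to 0.48) were not called. The count fell to 2 without KO gradient 3, when Dppa2 (adjusted p = 0.0626), Tdgf1 (0.186) and Tcl1 (0.0711) lost their calls. Without KO gradient 2, Tdgf1 (0.0527) and Tcl1 (0.138) lost theirs and Dppa3 was called lower (log2 -0.59, adjusted p = 0.0143). With scaling by library size alone, Dppa3 was called lower (adjusted p = 0.0273) and Tcl1 was not called (0.0869), and with the KO monosome and high polysome fitted alone Dppa5a was called lower (0.00344).

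The low polysome placed the changes along the gradient. For the ratio of low polysome to monosome, 1 member was lowered and 1 raised in KO, against 4.71% of all genes called (2.39% lowered and 2.31% raised). Dppa3 was lowered, with log2 ratios of 1.24, 1.41 and 0.90 in WT and 0.15, 0.18 and 0.03 in KO and a KO effect of -1.08 (SE 0.24, limma adjusted p = 0.0174). Utf1 was raised, with log2 ratios of -0.36, -0.80 and -0.43 in WT and 0.38, 0.27 and 0.32 in KO and a KO effect of 0.88 (SE 0.24, adjusted p = 0.0399). The groups did not overlap for either gene. The call of Dppa3 was lost without KO gradient 3 (adjusted p = 0.138), WT gradient 1 (0.104) or WT gradient 2 (0.126), and with the length trend removed (-0.70, 0.157). That of Utf1 was lost under 9 of 14 alternatives, at adjusted p from 0.0514 to 0.209, with effects between 0.74 and 0.94. Without KO gradient 1, Tdgf1 was called lowered here (log2 -0.74, adjusted p = 0.0455). The other members lowered in translation level were not called here. Tcl1 was at -0.57 (interval -0.99 to -0.15, limma adjusted p = 0.107), Dppa5a at -1.20 (interval -2.50 to 0.11) and, with all gradients, Tdgf1 at -0.40 (interval -0.94 to 0.14).

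Between the polysome fractions no member was called. For the ratio of high to low polysome, limma called 0 of 8 members against 4.42% of all genes (3.39% raised and 1.03% lowered), 1 member had an unadjusted p under 0.05, edgeR called 0 and DESeq2 called 1. That member was Tdgf1 in both cases, with log2 ratios of 0.18, 0.28 and 0.33 in WT and -0.48, -0.12 and -0.90 in KO. Its KO effect was -0.76 (interval -1.30 to -0.23, limma adjusted p = 0.0901), with an adjusted p of 0.0300 by DESeq2 and of 0.0363 without KO gradient 1. Dppa5a could not be placed, since its difference of -0.96 had an interval from -2.26 to 0.34. Over all genes, raised calls were 49.2% of the total for low polysome over monosome and 31.7% with scaling by library size alone, and 76.7% and 60.3% for high over low polysome.

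Abundance within fractions set Tcl1 and Gdf3 apart from the rest, in opposite directions. Tcl1 was lower in KO in the monosome (log2 -1.11, SE 0.15), the low polysome (-1.68, SE 0.14) and the high polysome (-1.76, SE 0.14), with limma adjusted p values of 7.31e-06, 8.87e-09 and 4.32e-09. Gdf3 was higher in KO in the same fractions (0.72, SE 0.14; 0.79, SE 0.13; 0.58, SE 0.13), with adjusted p values of 0.00031, 5.99e-05 and 0.00106. Gdf3 levels were 179, 208 and 157 CPM in the WT monosome, 262, 246 and 266 CPM in WT low polysomes and 421, 408 and 434 CPM in the WT high polysome. In KO they were 284, 323 and 285 CPM, 369.9, 539 and 448 CPM, and 598, 598 and 702 CPM in the same order. All 9 KO libraries thus exceeded the WT libraries of their fraction, and both genotypes showed the same order of fractions by CPM. Gdf3 shares 11.97% of the 50-base words of its last 400 bases with other transcripts.

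In all, 4 of 8 members were called in the monosome, 2 raised and 2 lowered, against 38.6% of all genes (18.6% raised and 20.1% lowered). In the low polysome 1 was raised and 2 were lowered, against 47.7% (23.4% and 24.3%), and in the high polysome 1 was raised and 4 were lowered, against 46.5% (25.3% and 21.1%). In the monosome Tdgf1 was raised (0.57, SE 0.18, limma adjusted p = 0.0180) and Utf1 lowered (-0.71, SE 0.17, adjusted p = 0.00248). The Tdgf1 call was lost, at adjusted p up to 0.0664, without KO gradients 2 or 3 or WT gradients 2 or 3. Dppa5a was at 0.84 in the monosome (interval -0.09 to 1.76, adjusted p = 0.145), and its groups did not overlap. With the 2 monosome groups fitted alone its adjusted p was 4.64e-05, the lowest of a range up to 0.338 over the alternatives.

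In the low polysome the third call was Dppa3 (-1.06, SE 0.15, limma adjusted p = 1.07e-05). In the high polysome Dppa3 (-1.35, SE 0.16, adjusted p = 8.4e-07), Dppa5a (-1.32, SE 0.44, 0.0183) and Tdgf1 (-0.59, SE 0.18, 0.0117) were lowered beside Tcl1. Dppa5a (0.0989 and 0.0766) and Tdgf1 (0.0859 and 0.0771) lost these calls without KO gradient 3 and without WT gradient 2. Without the low WT gradient 3, Dppa5a was called lowered in the low polysome (-1.03, adjusted p = 0.0413).

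Utf1 was lower in KO in the monosome and passed no test in the polysome fractions. WT levels were 92.4, 131 and 111 CPM in the monosome, 71.8, 75.1 and 82.1 CPM in low polysomes and 159.9, 175 and 181 CPM in the high polysome. KO levels were 52.7, 82.0 and 72.6 CPM, 68.9, 98.6 and 91.0 CPM, and 131, 169 and 144 CPM. The genotypes overlapped in both polysome fractions, and the high polysome difference of -0.22 had an interval of -0.55 to 0.11. The order of fractions by CPM in WT was low polysome, monosome and high polysome, without overlap, and in KO the monosome and low polysome ranges overlapped.

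Dppa2 and Dppa4 passed the test of KO against WT in no fraction. Dppa2 ran at 21.1, 24.4 and 22.4 CPM in the WT monosome, 27.1, 27.3 and 16.2 CPM in WT low polysomes and 44.0, 36.0 and 35.1 CPM in the WT high polysome. In KO it ran at 25.8, 26.1 and 21.03 CPM, 26.1, 20.9 and 23.2 CPM, and 37.6, 34.1 and 33.9 CPM. The high polysome was the highest fraction by CPM in both genotypes, and monosome and low polysome overlapped. Dppa4 ran at 211, 212 and 205 CPM in the WT monosome, 98.5, 85.2 and 116 CPM in WT low polysomes and 243, 145 and 188 CPM in the WT high polysome. In KO it ran at 264, 172 and 214 CPM, 115, 174 and 111 CPM, and 202, 204 and 273 CPM. Monosome and high polysome overlapped for Dppa4 in both genotypes, with the low polysome as the lowest fraction by CPM in WT. Over the 3 fractions, the 95% intervals of KO against WT reached from -0.44 to 0.50 for Dppa2 and from -0.39 to 0.81 for Dppa4.

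**Figure D4:**
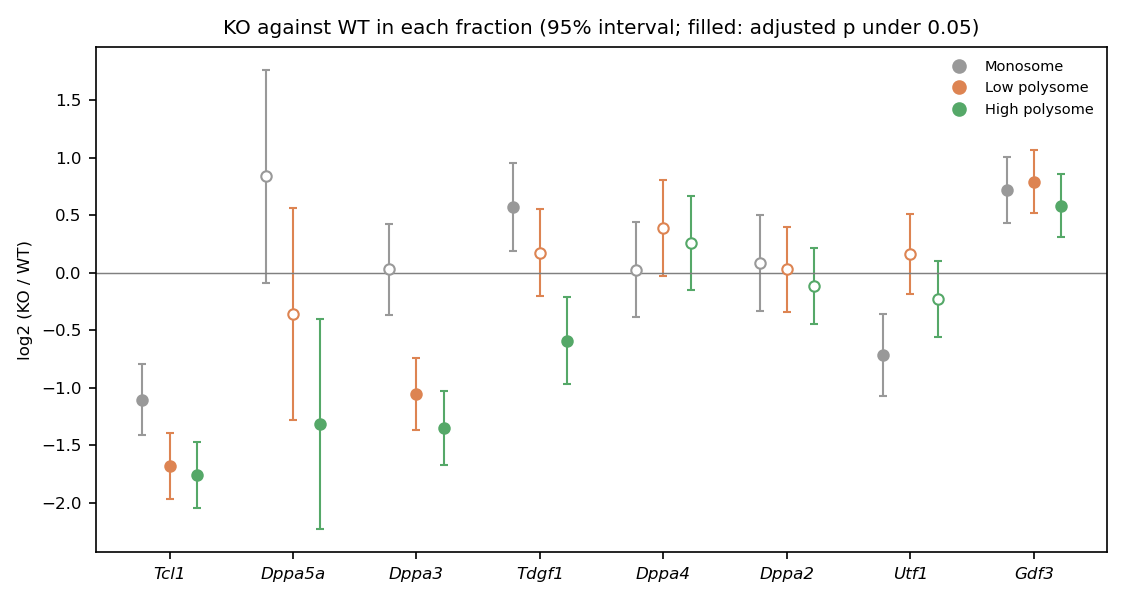
KO against WT on the log2 scale within the monosome, low polysome and high polysome for each member, with 95% intervals and filled symbols where the limma adjusted p was under 0.05. Tcl1 lies below 0 and Gdf3 above 0 in all 3 fractions, while Tdgf1 is above 0 in the monosome and below 0 in the high polysome.

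Averaged over the 3 fractions of each gradient with equal weight, which is not total RNA, 3 of 8 members were called, 1 raised and 2 lowered, against 56.6% of all genes (28.4% raised and 28.2% lowered). Tcl1 was lowered (-1.51, SE 0.09, limma adjusted p = 6.45e-08), Dppa3 was lowered (-0.79, SE 0.10, adjusted p = 2.97e-05) and Gdf3 was raised (0.70, SE 0.09, adjusted p = 2.24e-05). Dppa4 was at 0.23 (interval 0.02 to 0.43, adjusted p = 0.0560), Utf1 at -0.25 (interval -0.52 to 0.01, 0.0933) and Dppa5a at -0.28 (interval -0.64 to 0.08, 0.169). Tdgf1 was at 0.05 (interval -0.14 to 0.24) and Dppa2 at 0.0018 (interval -0.25 to 0.25). Leaving out WT gradient 1 added Dppa4 (0.27) and Utf1 (-0.34) to the calls, and leaving out WT gradient 3 added Dppa4 (0.26) and Dppa5a (-0.49). Utf1 was also called by DESeq2 (-0.28, adjusted p = 0.00994), by edgeR (-0.25, 0.0306), in the fit with the replicate block (-0.26, 0.0294) and without KO gradient 2 (-0.37, 0.0296). The DESeq2 and edgeR fits took the 18 libraries as independent instead of gradient means, so fractions of the same gradient counted as replicates. The fit with the replicate block also used libraries, with a shared correlation of 0.076 within a gradient. Dppa4 was also called with scaling by library size alone (0.23, adjusted p = 0.0450) and without a filter (0.27, 0.0470).

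Other genes of the members' pathways were taken from lists of known function, and their changes are on the log2 scale. Of 30 further stem cell markers, 5 were raised and 4 lowered in translation level, with a median of 0.22, where 10.7% of all genes were raised and 7.09% lowered. DESeq2 gave 5 raised and 5 lowered, and edgeR 5 raised and 2 lowered. Zscan10, a zinc finger factor, was raised by 1.28 (SE 0.32), the co-repressor Trim28 by 1.15 (SE 0.23) and the glucose transporter Slc2a3 by 1.15 (SE 0.19), and the tetraspanin Cd9 was lowered (-1.41, SE 0.46). Over all fractions 10 of the 30 were raised and 12 lowered, against 28.4% and 28.2% of all genes. Those of largest change were lowered, Pramel7 (-4.00), the uridine phosphorylase Upp1 (-3.40), the epiblast factor Otx2 (-2.56) and the cell cycle factor Mybl2 (-1.98). All of these were at limma adjusted p up to 9.85e-07. The largest changes among the raised ones were those of Slc2a3 (1.76, SE 0.09) and Cd9 (1.17, SE 0.19).

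Tdgf1 and Gdf3 act in Nodal signalling, and of 15 partners 13 were tested. Limma called 0 of 13 for translation level, 2 had an unadjusted p under 0.05, and edgeR and DESeq2 called 0, DESeq2 giving no adjusted p for 2. Over all fractions 4 partners were raised and 4 lowered, against 28.4% and 28.2% of all genes. The raised ones were the receptor genes Acvr1b (0.55, SE 0.11) and Acvr2a (0.52, SE 0.17), the ligand Nodal (0.45, SE 0.10) and the convertase Furin (0.43, SE 0.11), named here after their values were seen. The lowered ones were the Nodal antagonists Lefty2 (-2.54, SE 0.18, limma adjusted p = 2.14e-07) and Lefty1 (-0.90, SE 0.32, adjusted p = 0.0301), the convertase Pcsk6 (-0.84, SE 0.08) and the weakly counted co-receptor gene Cfc1 (-1.74, SE 0.40). Of 16 AKT partners of Tcl1, 10 were tested. None was called for translation level by limma, edgeR or DESeq2, and 1 of them had an unadjusted limma p under 0.05. Against the same 28.4% raised and 28.2% lowered of all genes over the fractions together, 4 were raised, the activating kinase Pdpk1 (0.71, SE 0.08) and Akt1 (0.46, SE 0.12) among them, and 3 lowered, the catalytic subunit Pik3ca (-0.55, SE 0.12) among them.

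Of 9 maternal and early embryo genes, KH domain relatives of Dppa5a among them, 4 were tested. For translation level 0 were raised and 1 lowered, where 10.7% of all genes were raised and 7.09% lowered. Over all fractions 1 was raised and 2 were lowered, against 28.4% and 28.2% of all genes. Ooep, a KH domain gene of the maternal complex with a coding length of 495 nt, was lowered in translation level (-1.41, SE 0.46, limma adjusted p = 0.0388) and over all fractions (-1.35, SE 0.17), and its partner Khdc3 was lowered over all fractions (-1.76, SE 0.14). Dppa1 was raised over all fractions (4.91, SE 0.38, limma adjusted p = 4.9e-07), from counts near the floor in WT. It had 0 to 10 counts per WT library and 31 to 145 per KO library. Of 9 genes of DNA methylation and demethylation, the process in which Dppa3 acts, 4 were raised in translation level and 0 lowered, with a median of 0.64, where 10.7% of all genes were raised and 7.09% lowered. They were the methyltransferases Dnmt3b (0.95, SE 0.21), Dnmt1 (0.74, SE 0.19) and Dnmt3a (0.62, SE 0.20) and the dioxygenase Tet2 (0.94, SE 0.25), with coding lengths of 2580 to 5739 nt. Over all genes the median change was 0.47 and 0.59 in the 2 deciles of longest coding sequences, in which these 4 lie. For abundance over all fractions, 3 of the 9 were raised and 1 was lowered, against 28.4% and 28.2% of all genes. Dnmt3b was the lowered one (-1.07, SE 0.11, limma adjusted p = 4.05e-06), at a mean of 67.7 CPM in WT and 34.1 CPM in KO. Tet3 (0.81), Dnmt3a (0.74) and Dnmt3l (0.33) were raised. None of 8 two-cell stage genes passed the filter, at up to 6 counts per WT library and 20 per KO library.

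The genes whose pattern was most like that of each member were found by the root mean square (RMS) difference in log2 CPM over the 18 libraries, after removal of each gene's own mean, among 9028 other genes. Atp6v0d1 was nearest to Gdf3 (RMS 0.12), Vegfc to Tdgf1 (0.14), Mapk1ip1l to Utf1 (0.16), Erich1 to Dppa2 (0.16) and Kif22 to Dppa4 (0.17). The nearest genes to the other three lay farther away, with 0610009B22Rik for Dppa5a (0.22), Olig1 for Tcl1 (0.24) and Cd38 for Dppa3 (0.25). Next to Dppa3 came Tceal9 and Glipr2, next to Dppa5a Eaf1 and Emc4, next to Tdgf1 Slc35a1 and Tial1, and next to Tcl1 Jakmip1 and Eif2s2. For Gdf3 the further genes were Klhdc10 and Lrrc8a, for Utf1 Skp2 and Nsmce2, for Dppa2 Nelfa and Ecsit, and for Dppa4 Kat5 and Nelfcd.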

How the data were processed

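Per the labels and the study's methods, 3′ end libraries (QuantSeq FWD) were made from gradient fractions, and the authors trimmed reads with cutadapt 1.14, aligned them to mm10 (GRCm38) with STAR 2.5.3a, and kept unique alignments. The authors deposited raw counts per gene, made with featureCounts 1.5.3 by strand. Unique counting removes reads shared with near-identical copies, and no molecular identifiers are mentioned, so PCR copies may be among the counts. Each read marks a 3′ end, so CPM was not divided by length and levels were not compared between genes. Library totals are given in the report.

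Genes with at least 3 CPM in at least 3 libraries (12705, holding 99.6% of counts) entered the tests. After TMM scaling in edgeR 4.0.16, voom and limma 3.58.1 were run in R 4.3.3 with a mean for each of the 6 groups. The 92 spike-in sequences were left out. KO effects are interaction terms, as in the study's methods, and tests were two-sided with Benjamini-Hochberg adjustment over all genes tested. Abundance over all fractions was tested on 3 WT against 3 KO gradient means of log2 CPM (limma with trend, prior count 0.5). Single-gradient ratios used a pseudocount of 0.5 CPM. Symbols came from Gencode M21 for 51274 genes, with none for 193. The fit was checked on simulated counts with 200 changed genes.

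Libraries of a genotype with one number come from one gradient, per the titles and protocol. Their deviations from group means correlated at -0.17 to 0.46 between fractions. Alternatives were DESeq2 1.42.0, edgeR quasi-likelihood, DESeq2 size factors, scaling by library size alone, no filter, compared groups only, gradient as a replicate block, removal of the trend with coding length, other pseudocounts and leaving out each gradient. The members and lists were chosen with earlier results of these data known. Named genes were the 8 members, Ddx6, up to 4 called genes of largest change per list and comparison, and the 3 genes most like each member (mean of at least 10 CPM).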

Additional observations from a re-analysis of the deposited data

Results flagged for a closer look

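The KO and WT fraction ratios differed by the interaction test for 4 members in high polysome over monosome, with log2 differences of -1.38 for Dppa3, -2.16 for Dppa5a, -1.16 for Tdgf1 and -0.66 for Tcl1. For low polysome over monosome they differed for Dppa3 (-1.08) and Utf1 (0.88). Dppa3 was the 1 member called in both. Utf1 was the 1 called member with a higher ratio in KO.

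The spike-in sequences, which entered no comparison, received up to 169 counts in a library, the WT low polysome library of gradient 3, which was also the WT library with the lowest Dppa5a level of that fraction. It held 7773469 gene counts, and spike-in counts in the other libraries ran from 28 to 85. The KO low polysome library of gradient 2, also low in Dppa5a (347 CPM), had 65. The part of the WT library in the Dppa5a values was not tested beyond leaving the gradient out.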

How the results depend on the processing

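Across the 9 comparisons, counts of called members kept within 1.5 times their value under the alternatives except as follows. For high polysome over monosome, 4 calls became 1 with the length trend removed and ranged from 1 to 4 when 1 gradient was left out. For low polysome over monosome, 2 calls became 0 with the length trend removed, 1 with the compared groups only, 1 with library size alone and 1 without a filter, and ranged from 0 to 3 when 1 gradient was left out. For high over low polysome, 0 calls became 1 by DESeq2 and ranged from 0 to 1. Leaving out 1 gradient gave 3 to 5 calls for KO against WT in the high polysome, 2 to 5 for the KO high polysome over monosome and 3 to 5 over all fractions. The fit with the replicate block gave 5 calls for high polysome over monosome and 4 over all fractions, adding Utf1 to each, and changed no other call of a member. For library size alone, the median KO effect on high polysome over monosome over all genes moved from 0.02 to -0.10.

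Signs changed only for values that had not passed the test. With the length trend removed, Dppa2 became 0.00051 for high polysome over monosome and 0.061 for high over low polysome, Dppa4 0.073 for the latter and Gdf3 -0.017 for low polysome over monosome. Dppa2 in the low polysome became -0.019 by DESeq2 and -0.0073 by edgeR, and over all fractions -0.044 by DESeq2, -0.032 with DESeq2 size factors, -0.011 by edgeR and -0.00058 with the replicate block. Dppa4 in KO high polysome over monosome became -0.028 with library size alone. Leaving out 1 gradient at a time gave these ranges across 0. For low polysome over monosome they were -0.29 to 0.097 for Dppa2 and -0.072 to 0.20 for Gdf3, and for high over low polysome -0.30 to 0.048 for Dppa2 and -0.38 to 0.15 for Dppa4. For KO against WT they were -0.090 to 0.12 for Dppa3 and -0.13 to 0.18 for Dppa4 in the monosome, and -0.22 to 0.16 for Dppa2 and -1.03 to 0.21 for Dppa5a in the low polysome. Over all fractions they were -0.10 to 0.048 for Dppa2 and -0.00067 to 0.11 for Tdgf1, and for Dppa4 in high polysome over monosome -0.28 to 0.036 in WT and -0.047 to 0.30 in KO. With 3 gradients per genotype, SEs were 0.19 to 0.63 for the KO effects on high polysome over monosome, which limits what differences can be detected.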
